A study of Mus musculus with 13 samples.

Results

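Translation initiation factors (*Eif*) and elongation factors (*Eef*) were followed in whole parametrial white adipose tissue (pmWAT) by bulk RNA-Seq. The set held every protein-coding gene whose symbol begins with *Eif1* to *Eif6*, leaving out the *Eif2ak* kinases, or with *Eef1* or *Eef2*, and that had at least 10 counts summed over all libraries. These were 62 of the 33618 genes in the count table. The least counted of them, *Eif3j2*, had 157 counts, and the 5 matching genes under the limit had at most 7 (*Eif1ad14*, *Eif1ad18*, *Eif4a3l1*, *Eif4a3l2* and *Eif4e1b*). All 62 passed the filter on low counts.

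The tissue came from female mice, 7 of them *Lmna* fl/fl and 6 *Lmna* iADKO. Both carried loxP-flanked *Lmna*, and the iADKO mice also had *Adipoq*-CreERT2+/–, a tamoxifen-activated Cre driven by the adiponectin promoter in adipocytes. Every mouse, controls included, received i.p. tamoxifen at 50 mg/kg on 5 consecutive days at 12 to 14 weeks of age, and pmWAT was taken 2 weeks later. Since the tissue was sequenced whole, adipocytes were mixed with immune, vascular and stromal cells, and fewer cells of a type cannot be told apart from less RNA per cell. In libraries labelled iADKO the *Lmna* transcript was no lower. It was at 74.7 to 98.5 CPM in fl/fl and 80.1 to 109 CPM in iADKO (log2 fold change 0.19, SE 0.0789, adjusted p = 0.0785 by edgeR's quasi-likelihood test), so each direction given here rests on the labels. The loxP sites flank exons 10 and 11, while the counts cover the whole gene in every cell type of the tissue, so this level is not a direct check of the deletion.

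Protein synthesis starts when eIF2 brings the initiator transfer RNA to the small ribosomal subunit. With eIF3, the scanning and start-codon factors eIF1, eIF1A and eIF5 take part in finding the start codon. The messenger RNA is brought in by eIF4F, made of the cap-binding protein eIF4E, the scaffold eIF4G and the helicase eIF4A. The 4E-BP proteins compete with eIF4G for eIF4E until the kinase mTORC1 phosphorylates them, which is how insulin and nutrients control translation in adipose tissue. During elongation eEF1A delivers each aminoacyl-tRNA, the eEF1B subunits recharge eEF1A with GTP, eEF2 moves the ribosome along, and eIF5A eases difficult peptide bonds.

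Libraries held 18854223 to 19776491 counts on genes, and values are CPM, the counts scaled to a common library size after TMM normalization, with errors taken between mice. TMM factors lay between 0.892 and 1.02 for fl/fl mice and between 1.05 and 1.10 for iADKO mice, and the 10 most counted genes took 9.54% to 14.3% and 6.51% to 9.12% of the counts. All 8 adipocyte markers were lower in iADKO, with *Cidec*, a lipid droplet protein, at a log2 fold change of -1.11. Their summed level was 16317 to 25182 CPM in fl/fl and 10441 to 17958 CPM in iADKO. These ranges overlapped, with fl/fl 5 the lowest and iADKO 6 the highest of its label. Of the 9 macrophage markers 5 were higher, and their summed level was 1901 to 5407 CPM in fl/fl and 3038 to 5243 CPM in iADKO. In fl/fl 5 it was 5407 CPM and in iADKO 6 it was 3038 CPM, so each of these mice lay nearer to the mice of the other label. Fl/fl 7 was at 3541 CPM, the other 5 fl/fl mice reached at most 2434 CPM, and the other 5 iADKO mice were at 4463 CPM or more. Of the remaining marker lists, higher calls were made for 3 of 6 T cell, 2 of 5 B cell and 5 of 8 proliferation genes, 2 of 5 endothelial genes were lower, and no call was made by edgeR for the progenitor, mesothelial and skeletal muscle lists, where 1 of 5, 1 of 5 and 0 of 11 genes had an unadjusted p below 0.05 and DESeq2 called 1 mesothelial gene. Over all tested genes edgeR called 14.1% higher and 16.3% lower. No marker was at 0 in any list.

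Most of the translation factor genes differed little between labels. Of the 62, 6 were higher and 5 lower in iADKO by edgeR's quasi-likelihood test with Benjamini-Hochberg adjustment over all 16753 genes tested. That is 17.7% of them, beside a background of 30.5% of all tested genes called (14.1% higher, 16.3% lower). In 4 of the 62 the libraries of the labels did not overlap (6.45%), beside 6.64% of all tested genes. They were 3 with iADKO above and 1 with iADKO below, where 2.71% and 3.93% of all tested genes had such a pattern. The median log2 fold change of the 62 was 0.05, against 0.03 over all tested genes, and the median absolute value was 0.10 against 0.21. An absolute log2 fold change under 0.2 was found for 49 of the 62 (79.0%) and for 48.6% of all tested genes. The median SE was 0.065 for the 62 and 0.107 over all tested genes, which hold more genes of low level. Among genes of higher level (average log2 CPM of 4 or more), 11 of 52 translation factor genes were called, against 38.6% of 8919 genes. The median absolute log2 fold change of these 8919 genes was 0.16. Of the 51 genes not called, 47 had a 95% interval of the log2 fold change within ±0.5, and 6 had an unadjusted p below 0.05.

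Of the 11 called genes 6 were in the eIF4F group or encode proteins that bind eIF4E, and 2 encode subunits of the eEF1B exchange factor. By group, 3 of 11 eIF4F genes, 3 of 4 eIF4E inhibitor and transporter genes and 2 of 6 eEF1 genes were called. The share over all tested genes was 30.5%. Lower were *Eif4e3*, *Eif4ebp1*, *Eif4g1*, *Eif4ebp2* and *Eif2d*, and higher were *Eif4a2*, *Eef1b2*, *Eef1g*, *Eif3h*, *Eif3m* and *Eif4enif1*. The choice of scaling bears on this split. When libraries were scaled by total counts alone, the median of all tested genes moved from 0.03 to 0.24 and that of the translation factor genes to 0.26, with 40 called higher and 3 lower (*Eif4e3*, *Eif4ebp1* and *Eif4g1*). Without fl/fl 7, 10 of the 62 were higher, the added ones being *Eif3g*, *Eif4a1*, *Eif5a2* and *Eif6*.

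**Figure D1:**
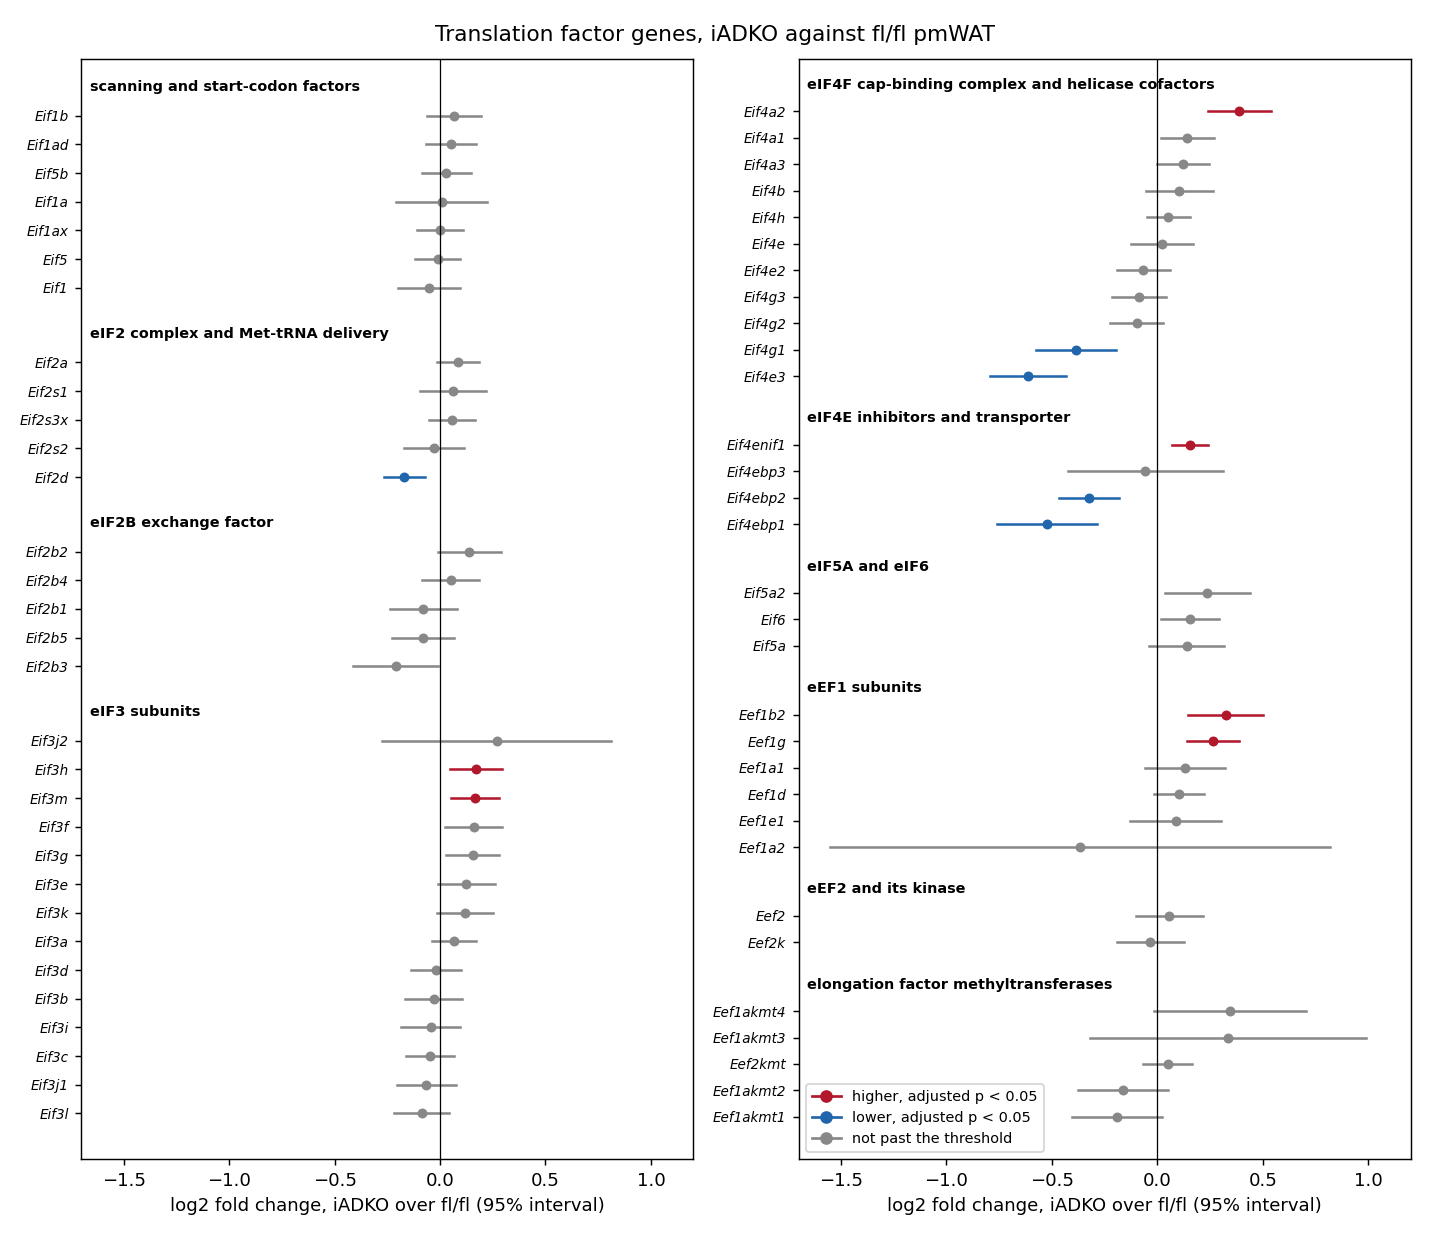
Log2 fold change of each of the 62 translation factor genes (x axis, iADKO over fl/fl, bars are 95% intervals), grouped by role, with red for higher, blue for lower and gray for genes not past the threshold. Most points lie within 0.2 of zero, and the red and blue points are mainly in the cap-binding, 4E-BP and eEF1 groups.

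Levels were compared between genes as CPM per kilobase of the canonical transcript. *Eef1a1* ranked first in fl/fl at 2608 CPM per kilobase, followed by *Eef2* at 622, *Eif5a* at 203 and *Eif1* at 190.0. The helicase genes *Eif4a2* at 177.5 and *Eif4a1* at 177.4 were next and were not distinguishable, and *Eef1g* and *Eif4g1* followed. At the low end were *Eef1a2*, the muscle and neuron form of eEF1A, at 0.213 ± 0.185 CPM per kilobase (SD, n = 7), *Eif3j2* at 0.237 and *Eef1akmt3* at 0.239, which could not be ordered within their spread. The place of *Eef1a2* depends on the 13742 bases of its canonical transcript. Without division by length its fl/fl mean was 2.92 CPM, above *Eif3j2* at 0.565 and *Eef1akmt3* at 0.649. *Eef1a1* alone gave 30.7% to 34.6% of the translation factor counts of fl/fl mice and 33.2% to 35.6% of those of iADKO mice. The 62 genes together took 1.24% to 1.42% of all counts in fl/fl mice and 1.53% to 1.65% in iADKO mice, which did not overlap. After TMM scaling their sum was 13666 to 15259 CPM in fl/fl and 13915 to 15360 CPM in iADKO, which overlapped over most of the range.

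The clearest difference was in the transcript of a single cap-binding protein. *Eif4e3* (ENSMUSG00000093661, chr6:99602081-99643784, minus strand) encodes an eIF4E-family protein that binds the cap in an atypical way. It was at 47.0 to 71.5 CPM in fl/fl (median 63.7) and 37.2 to 45.7 CPM in iADKO (median 41.0). All iADKO mice lay below all fl/fl mice, with fl/fl 5 the lowest of its label. The log2 fold change was -0.61 (SE 0.0841, adjusted p = 0.000346, edgeR's quasi-likelihood test). By contrast *Eif4e* (ENSMUSG00000028156, chr3:138231936-138265457, plus strand), which encodes the main cap-binding protein, was at 43.2 to 58.5 CPM in fl/fl (median 55.6) and 51.1 to 59.4 CPM in iADKO (median 54.5). The ranges overlapped, and the 95% interval of its log2 fold change was -0.12 to 0.17 around 0.02. *Eif4e2*, whose protein takes part in translational repression, was at -0.07 on the log2 scale (adjusted p = 0.405).

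A scaffold gene and a helicase gene of eIF4F moved in opposite directions. *Eif4g1* (ENSMUSG00000045983, chr16:20487063-20511654, plus strand), which encodes the main scaffold, was at 580.1 to 864 CPM in fl/fl (median 758) and 546 to 626 CPM in iADKO (median 555). Only fl/fl 5, at 580.1 CPM, fell within the iADKO range, and the log2 fold change was -0.39 (SE 0.0885, adjusted p = 0.00568, edgeR). The other *Eif4g* genes were not called, *Eif4g2* at -0.10 (adjusted p = 0.220) and *Eif4g3* at -0.09 (adjusted p = 0.290), although DESeq2 did call *Eif4g2* lower. *Eif4a2* (ENSMUSG00000022884, chr16:22925894-22932886, plus strand), an RNA helicase gene of eIF4F, was at 379 to 456 CPM in fl/fl (median 444) and 499.9 to 637 CPM in iADKO (median 571). Every iADKO mouse was above every fl/fl mouse, with a log2 fold change of 0.39 (SE 0.0694, adjusted p = 0.00147, edgeR). Its close relative *Eif4a1* had a smaller difference that missed the threshold (0.14, adjusted p = 0.0787). *Eif4a3*, whose protein sits in the exon junction complex, was at 0.12, and the helicase cofactor genes *Eif4b* and *Eif4h* were at 0.10 and 0.05, none of them called. The eIF4F group as counted here also takes in relatives of its subunits and helicase cofactors. Of its 11 genes, 1 was higher and 2 were lower, beside 14.1% and 16.3% of all tested genes.

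Of the 4 genes of the eIF4E inhibitors and the eIF4E transporter 2 were lower and 1 higher, beside 16.3% and 14.1% of all tested genes. *Eif4ebp1* (ENSMUSG00000031490, chr8:27750350-27805206, plus strand), which encodes 4E-BP1, was at 102 to 164 CPM in fl/fl (median 132) and 81.9 to 117 CPM in iADKO (median 94.2). Fl/fl 5 was the lowest fl/fl mouse and iADKO 6 the highest iADKO mouse, and these were the libraries that made the ranges overlap. The log2 fold change was -0.52 (SE 0.110, adjusted p = 0.00360, edgeR). *Eif4ebp2* (ENSMUSG00000020091, chr10:61264032-61288567, minus strand) was at 299.5 to 390.1 CPM in fl/fl (median 340.3) and 261 to 312 CPM in iADKO (median 271). Here the overlap came from fl/fl 7, the lowest of its label, and iADKO 6, and the log2 fold change was -0.32 (SE 0.0673, adjusted p = 0.00327). *Eif4ebp3* was counted at under 1.15 CPM in every mouse and had no precise estimate (95% interval -0.42 to 0.31). *Eif4enif1* (ENSMUSG00000020454, chr11:3152235-3194588, plus strand), which encodes the protein 4E-T that carries eIF4E into the nucleus and to P-bodies, was at 45.4 to 50.1 CPM in fl/fl (median 48.7) and 49.5 to 55.5 CPM in iADKO (median 54.6). It was above the fl/fl range in all iADKO mice but iADKO 6, with a log2 fold change of 0.15 (SE 0.0409, adjusted p = 0.0119).

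**Figure D2:**
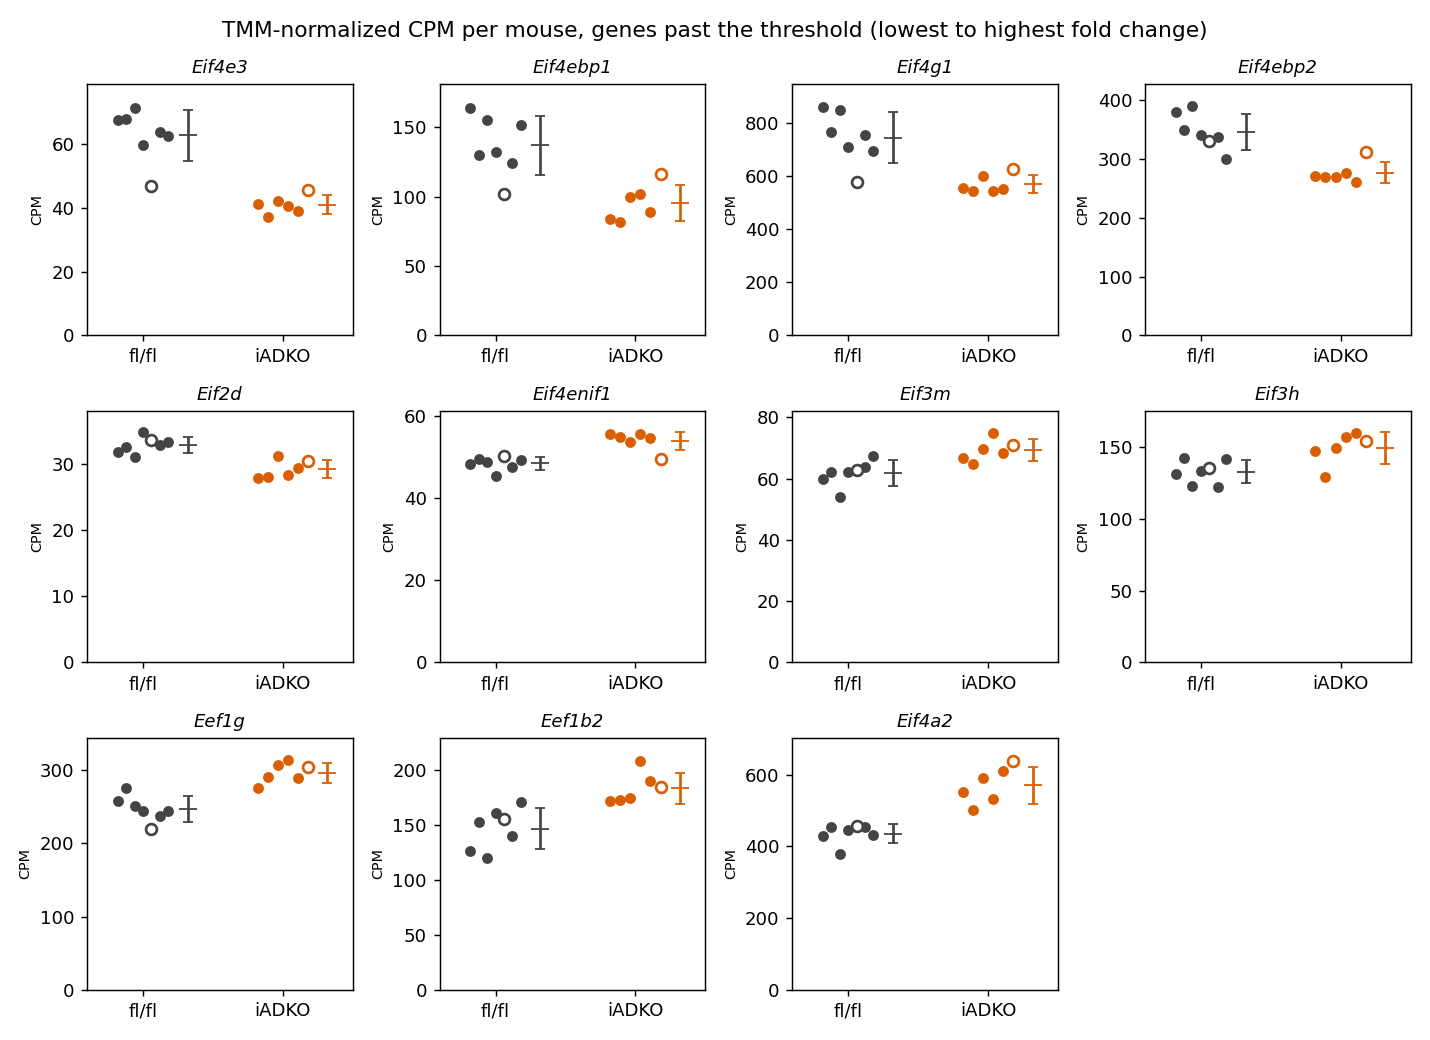
TMM-normalized CPM (y axis, from 0) of the 11 translation factor genes past the threshold, with 1 point per mouse, bars for mean ± SD, and open circles for fl/fl 5 and iADKO 6. *Eif4e3* is lower in every iADKO mouse and *Eif4a2*, *Eef1b2* and *Eef1g* are higher in every one, and in the other genes the labels overlap.

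Changes within the cap-binding machinery were also read as ratios of counts inside each mouse, which do not depend on library scaling. The 8 ratios were picked after the single-gene values were known, so they describe the same differences and are not independent of them. Each was tested by exact permutation, two-sided, over the 1716 splits of the mice into 7 and 6, which can give no p below 0.000583, with Benjamini-Hochberg adjustment over the 8. *Eif4e3* counts over *Eif4e* counts had a mean log2 ratio of 0.21 ± 0.0731 (SD, n = 7) in fl/fl and -0.42 ± 0.149 (SD, n = 6) in iADKO. The labels did not overlap, fl/fl 5 included, and p was 0.000583 by the exact permutation test (adjusted 0.00311). *Eif4g1* over *Eif4a2*, scaffold over helicase, fell from 0.77 ± 0.261 (SD, n = 7) to 0.01 ± 0.0861 (SD, n = 6), again with no overlap (exact permutation p = 0.00117, adjusted 0.00311). Within paralog pairs, *Eif4a2* over *Eif4a1* differed by 0.24 (exact permutation p = 0.0128, adjusted 0.0171) and *Eif4g1* over *Eif4g2* by -0.28 (exact permutation p = 0.00932, adjusted 0.0149). The labels overlapped in both.

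The inhibitor genes were lower relative to *Eif4e* as well. *Eif4ebp1* over *Eif4e* differed by -0.54 (exact permutation p = 0.00117, adjusted 0.00311), with iADKO 6 at 1.18 just above the lowest fl/fl value of 1.16. *Eif4ebp2* over *Eif4e* differed by -0.35 (exact permutation p = 0.00524, adjusted 0.0105), and here fl/fl 5 was the highest of all mice at 2.93. In the elongation factors *Eef1b2* over *Eef1a1* differed by 0.20 and *Eef1g* over *Eef1a1* by 0.13 (exact permutation p = 0.0163 and 0.0472, adjusted 0.0186 and 0.0472). These were the smallest of the 8 differences, and the labels overlapped in both.

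**Figure D3:**
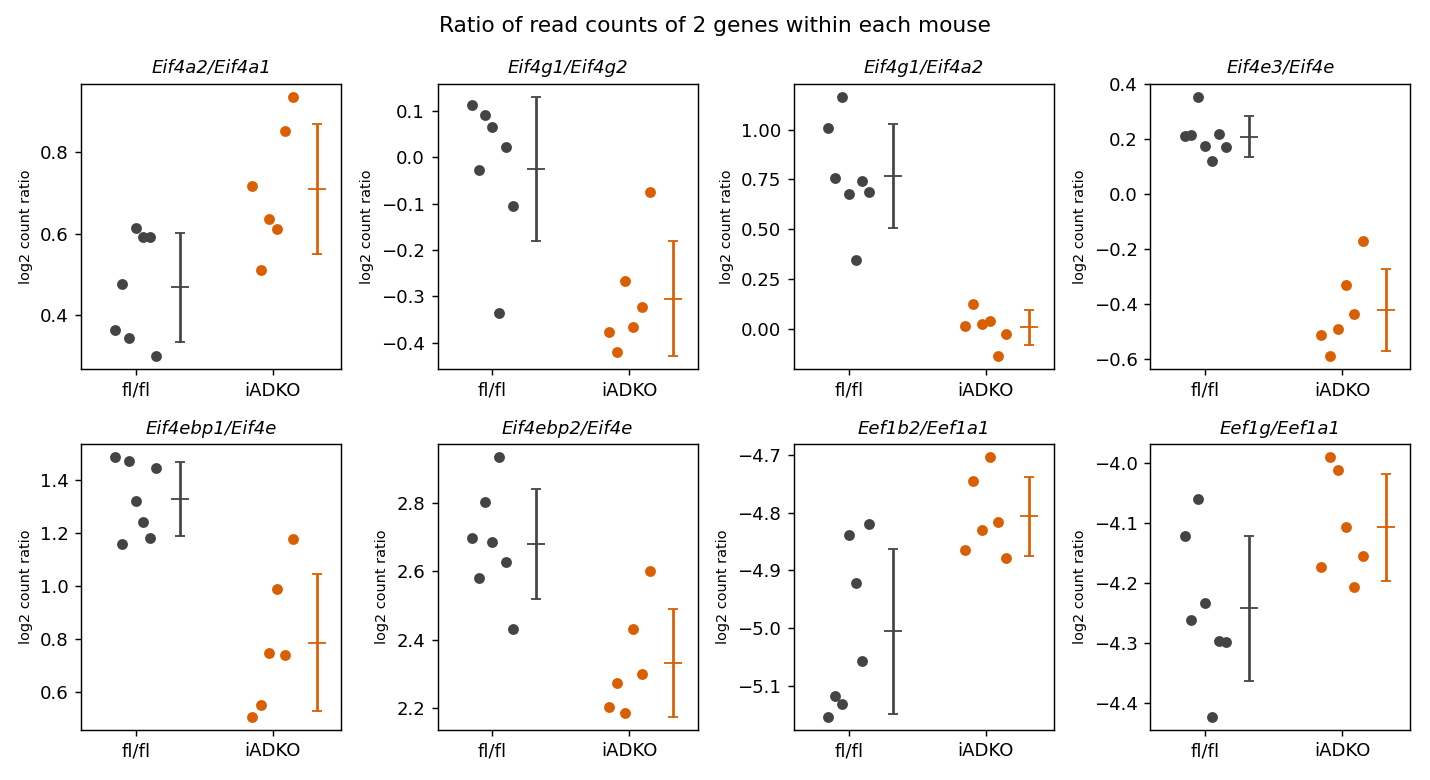
Log2 ratio of the counts of 2 genes within each mouse (y axis, scale differs by panel), with 1 point per mouse and bars for mean ± SD in 7 fl/fl and 6 iADKO mice. *Eif4e3* over *Eif4e* and *Eif4g1* over *Eif4a2* separate the labels, and the other 6 ratios overlap.

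Of the 6 eEF1 genes 2 were called, both higher and both for exchange factor subunits, beside 30.5% of all tested genes called (14.1% higher, 16.3% lower). *Eef1b2* (ENSMUSG00000025967, chr1:63215940-63219645, plus strand) encodes the subunit that exchanges GDP for GTP on eEF1A. It was at 119.7 to 170.4 CPM in fl/fl (median 152) and 171 to 207 CPM in iADKO (median 179), so that the lowest iADKO mouse lay just above the highest fl/fl mouse. The log2 fold change was 0.32 (SE 0.0823, adjusted p = 0.00983, edgeR). *Eef1g* (ENSMUSG00000071644, chr19:8944369-8955843, plus strand), the gene of the structural subunit eEF1Bγ, was at 219.6 to 275 CPM in fl/fl (median 244) and 276 to 314 CPM in iADKO (median 297). The margin was again narrow, and the log2 fold change was 0.26 (SE 0.0566, adjusted p = 0.00390). The third subunit gene, *Eef1d*, was not called (0.10, adjusted p = 0.175), and neither was *Eef1e1*, whose protein is a scaffold of the multisynthetase complex (0.09, adjusted p = 0.536).

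The genes of the delivery and translocation factors themselves did not pass the test. *Eef1a1* (ENSMUSG00000037742, chr9:78384916-78396778, minus strand) was at 4195 to 5283 CPM in fl/fl (median 4665) and 4622 to 5413 CPM in iADKO (median 5166), with a 95% interval of -0.06 to 0.32 for its log2 fold change. *Eef2* (ENSMUSG00000034994, chr10:81012465-81018348, plus strand) was at 1805 to 2056 CPM in fl/fl (median 1918) and 1826 to 2233 CPM in iADKO (median 1981), and the labels overlapped nearly completely. *Eef2k* (ENSMUSG00000035064, chr7:120441877-120506674, plus strand), the kinase that inactivates eEF2, was at 68.8 to 95.3 CPM in fl/fl (median 83.9) and 73.5 to 89.4 CPM in iADKO (median 81.1), with an interval of -0.19 to 0.13. *Eef1a2* was at 6.44 CPM in fl/fl 1, 6.78 CPM in fl/fl 5 and 5.00 CPM in iADKO 3 and at no more than 3.34 CPM in the other mice, which left a log2 fold change of -0.37 with an SE of 0.549. The summed skeletal muscle markers also ranged widely, from 23.2 to 569.9 CPM in fl/fl and from 15.1 to 299.6 CPM in iADKO, and their part in the *Eef1a2* values was not tested. None of the 5 methyltransferase genes of eEF1A and eEF2 was called by edgeR, DESeq2 or limma, and 0 had an unadjusted p below 0.05. Their log2 fold changes ran from -0.19 for *Eef1akmt1* to 0.34 for *Eef1akmt4*, the latter with an SE of 0.169.

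Of the 14 eIF3 subunit genes 2 were called, both higher, beside 14.1% of all tested genes called higher and 16.3% lower. *Eif3h* (ENSMUSG00000022312, chr15:51647088-51728940, minus strand) was at 122 to 142 CPM in fl/fl (median 134) and 129.6 to 160.1 CPM in iADKO (median 152), and the labels overlapped (log2 fold change 0.17, SE 0.0580, adjusted p = 0.0390, edgeR). *Eif3m* (ENSMUSG00000027170, chr2:104818164-104847462, minus strand) was at 54.0 to 67.5 CPM in fl/fl (median 62.2) and 64.8 to 75.0 CPM in iADKO (median 69.1), with overlap from fl/fl 7 at 67.5 CPM (log2 fold change 0.17, SE 0.0529, adjusted p = 0.0293). These were the calls that rested on single mice: *Eif3h* was not called without fl/fl 1, 3, 4 or 6 or iADKO 3, 4, 5 or 6, and *Eif3m* was not called without fl/fl 1 or 3 or iADKO 3 or 4. The other 9 of the 11 called genes stayed called with any 1 mouse left out. Both proteins belong to the PCI/MPN module of eIF3, as does the product of *Eif3f*, which was not called (0.16, adjusted p = 0.0692). *Eif3g*, an RNA-binding subunit gene, had a similar value (0.16, adjusted p = 0.0575). The gene of the largest subunit, *Eif3a* (ENSMUSG00000024991, chr19:60749551-60779149, minus strand) was at 275 to 304 CPM in fl/fl (median 293) and 288 to 331 CPM in iADKO (median 304), a difference of 0.07 with an interval of -0.04 to 0.17. Other large subunit genes, *Eif3b* (-0.03) and *Eif3c* (-0.05) were slightly below 0 and not called. *Eif3l* was the lowest of the 14 at -0.09 (adjusted p = 0.288), and 8 of the 14 had a positive value.

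Of the 5 eIF2 and initiator transfer RNA delivery genes 1 was called, beside 30.5% of all tested genes. *Eif2s1* (ENSMUSG00000021116, chr12:78907681-78935018, plus strand), which encodes the eIF2α subunit that stress kinases phosphorylate, was at 39.5 to 55.9 CPM in fl/fl (median 54.0) and 50.4 to 55.3 CPM in iADKO (median 53.4). Its log2 fold change was 0.06 with an interval of -0.09 to 0.22, and *Eif2s2* and *Eif2s3x*, for the other eIF2 subunits, were at -0.03 and 0.06. *Eif2d* (ENSMUSG00000026427, chr1:131080893-131115395, plus strand), which encodes a factor that can deliver transfer RNA without eIF2 and helps recycle the small subunit, was at 31.1 to 35.0 CPM in fl/fl (median 32.9) and 27.9 to 31.3 CPM in iADKO (median 29.0). It was the smallest of the lower calls (-0.17, SE 0.0453, adjusted p = 0.0123, edgeR), and under total-count scaling its value turned to 0.03 without a call. *Eif2a*, another alternative delivery factor gene, was at 0.08 (adjusted p = 0.177).

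No gene of eIF2B, the exchange factor that recharges eIF2, was called by edgeR, DESeq2 or limma, and 1 of the 5 (*Eif2b3*, -0.21) had an unadjusted p below 0.05. *Eif2b5* (ENSMUSG00000003235, chr16:20317240-20330928, plus strand), for the catalytic subunit, was at 40.8 to 58.0 CPM in fl/fl (median 48.9) and 41.5 to 49.3 CPM in iADKO (median 46.5) (log2 fold change -0.08, interval -0.23 to 0.06). Likewise none of the 7 scanning and start-codon genes was called by the 3 tools, and 0 had an unadjusted p below 0.05. *Eif1* (ENSMUSG00000035530, chr11:100210670-100212922, plus strand) was at 229 to 297 CPM in fl/fl (median 254) and 225 to 272 CPM in iADKO (median 251), a difference of -0.05 with an interval of -0.20 to 0.09. The 7 values ran from -0.05 to 0.07 (*Eif1b*). In the eIF5A and eIF6 group none of 3 was called by any of the tools and 2 had an unadjusted p below 0.05. *Eif5a* (ENSMUSG00000078812, chr11:69807422-69827276, minus strand) was at 214 to 312 CPM in fl/fl (median 287) and 271 to 328 CPM in iADKO (median 314), with fl/fl 5 the lowest mouse, a log2 fold change of 0.14 and an interval of -0.04 to 0.32. *Eif5a2* was at 0.24 (adjusted p = 0.0701) and *Eif6*, whose protein keeps the large ribosomal subunit from joining early, at 0.15 (adjusted p = 0.0850).

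Animal numbers in the library names fall into series, 2 of which hold both labels, and the differences were recomputed within these. The labels do not say that a series is a batch. Fl/fl 6 and 7 and iADKO 3 and 5 lie in series of a single label. The mice of the 2 mixed series also gave the calls, so signs within them are not independent of the calls. All 11 called genes kept their sign in the series of 2 fl/fl and 2 iADKO mice and in that of 3 and 2, but the sizes differed. *Eif4ebp1* was at -0.09 in the former and -0.85 in the latter, *Eif4g1* at -0.13 and -0.58, and *Eif4e3* at -0.30 and -0.81. The series of 2 and 2 holds both fl/fl 5 and iADKO 6. *Eif4a2* was about the same in both (0.37 and 0.32), while *Eef1g* was larger in the series of 2 and 2 (0.42 against 0.12). The ratio of *Eif4e3* to *Eif4e* differed by -0.40 in the series of 2 and 2 and by -0.81 in that of 3 and 2, and the ratio of *Eif4g1* to *Eif4a2* by -0.50 and -0.91. With the series as a block in the fit, *Eif4ebp1*, *Eif4g1*, *Eef1g*, *Eif4enif1* and *Eif3h* lost their calls (adjusted p = 0.055, 0.0504, 0.0525, 0.0724 and 0.244). The log2 fold changes of the first 4 were about as large as without the block, at -0.51, -0.38, 0.25 and 0.16, with larger SEs, and that of *Eif3h* was 0.13. Over all tested genes the block took the calls from 2367 higher and 2737 lower to 784 and 1202.

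The macrophage marker score moved with the label, and adding it to the fit left 3 of the 11 calls. Calls over all tested genes went from 2367 higher and 2737 lower to 204 and 283, so most calls were lost among genes at large too. *Eif4e3* was then at -0.35 (adjusted p = 0.0334), *Eif4a2* at 0.40 (adjusted p = 0.037) and *Eef1g* at 0.35 (adjusted p = 0.0281), all in edgeR's quasi-likelihood test. The other 8 kept their sign without a call. *Eif4g1* went from -0.39 to -0.11 (adjusted p = 0.553), *Eif4ebp1* from -0.52 to -0.26 (adjusted p = 0.315) and *Eif4ebp2* from -0.32 to -0.17 (adjusted p = 0.261). *Eif2d* was no smaller at -0.18 and had a larger SE of 0.0664 (adjusted p = 0.17). The genes called higher that lost their calls were at 0.18 (*Eef1b2*), 0.12 (*Eif3h*), 0.11 (*Eif3m*) and 0.082 (*Eif4enif1*). Because the score differs between labels, this fit also takes up part of the label itself. With fl/fl 5 and iADKO 6 left out instead, *Eif4e3* was at -0.73, *Eif4ebp1* at -0.67, *Eif4g1* at -0.49 and *Eif4ebp2* at -0.39, all still called, and *Eif3h* and *Eif3m* were lost. In that fit 4 translation factor genes were higher and 11 lower, the added ones being *Eif2b1*, *Eif2b3*, *Eif2b5*, *Eif3l*, *Eef1akmt1* and *Eef1akmt2*.

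**Figure D4:**
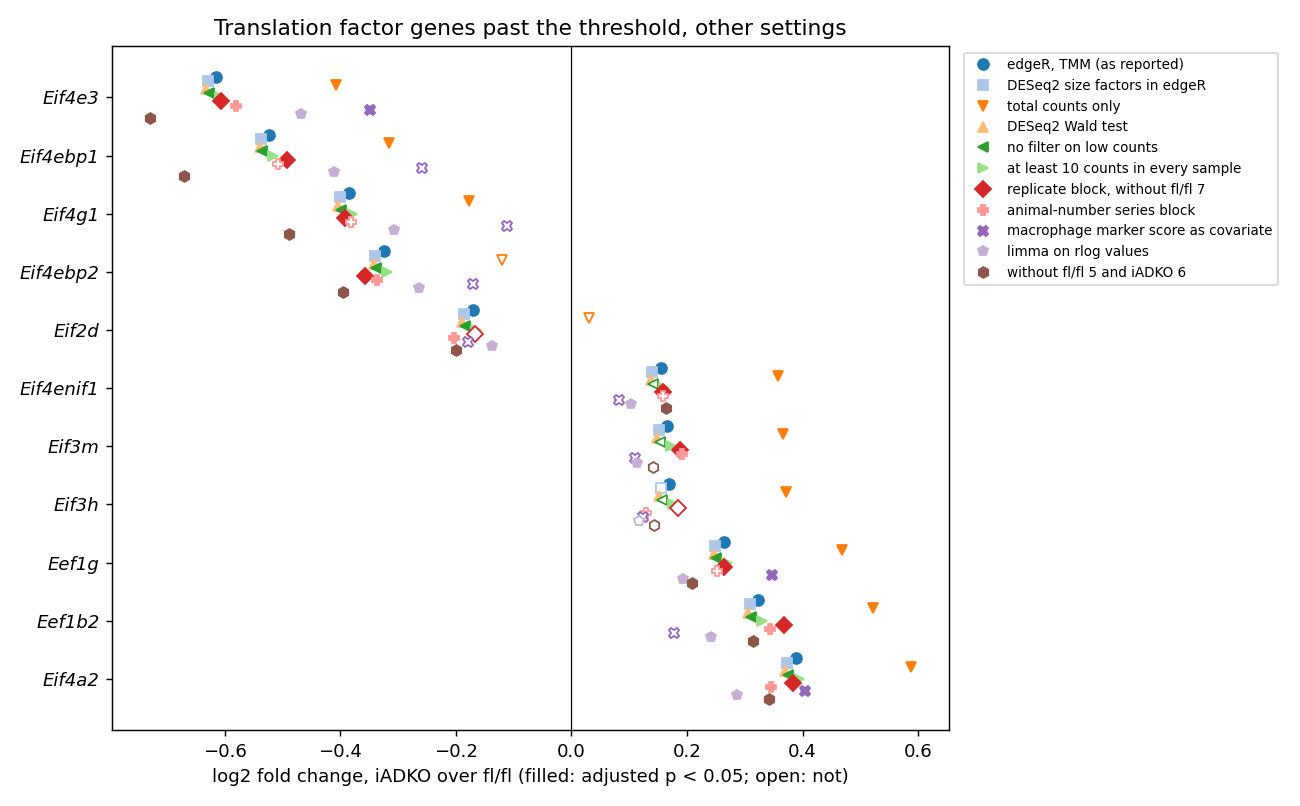
Log2 fold change (x axis, iADKO over fl/fl) of the 11 called genes under each setting, filled where the adjusted p stays below 0.05 and open where it does not. *Eif4e3* and *Eif4a2* are filled under every setting shown, while *Eif4g1* and *Eif4ebp1* are open with the series block and with the macrophage score.

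Other genes of the translation pathway were read from 7 lists. Of their 81 genes 5 were higher and 21 lower, together 32.1% beside 30.5% of all tested genes. Only the pooled share was close to the background, since 14.1% of all tested genes were higher and 16.3% lower. By total counts the split turned to 39 higher and 7 lower. The mTORC1 and cap-binding control list, which holds the kinases upstream of 4E-BP and eIF4E, had 6 of 14 lower and 0 higher by edgeR (16.3% and 14.1% of all tested genes), none of the 14 being higher at an unadjusted p below 0.05 or by DESeq2 or limma either. *Mknk2*, a kinase of eIF4E, had the lowest value at -0.78 (SE 0.0937, adjusted p = 0.0002), falling from 994 ± 126 CPM (SD, n = 7) to 577 ± 48.9 CPM (SD, n = 6). *Mtor*, the kinase subunit, was at -0.44 (adjusted p = 0.00222) and *Rps6kb1*, the gene of its substrate S6K1, at -0.38 (adjusted p = 0.000525). *Tsc2*, an inhibitor of mTORC1, was lower too (-0.34, adjusted p = 0.00171), as were *Pdcd4*, which restrains eIF4A (-0.33, adjusted p = 0.0439), and *Rptor* (-0.24, adjusted p = 0.00738). *Pdcd4* lost its call in 10 of 13 fits without 1 mouse (any but fl/fl 5, fl/fl 7 or iADKO 6), and the other 5 kept theirs. *Rheb*, the activator of mTORC1, was the highest at 0.08 and not called. The lower genes thus included activators and inhibitors of the pathway. With the macrophage score in the fit 1 of the 14 was lower, by total counts 4 were higher and 4 lower, and without fl/fl 5 and iADKO 6 10 were lower.

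All 10 mitochondrial translation factor genes had a negative value under TMM scaling, though 3 turned positive by total counts, with 7 of 10 called lower and 0 higher by edgeR, where 16.3% of all tested genes were lower and 14.1% higher, and 0 higher at an unadjusted p below 0.05 or by DESeq2 or limma. The lowest was *Mtrfr*, for a ribosome rescue factor, at -0.42 (SE 0.0724, adjusted p = 0.00109), and the highest *Mtrf1l*, for a release factor, at -0.06. *Gfm1*, the mitochondrial counterpart of *Eef2*, was at -0.41 (adjusted p = 0.0104) and *Tufm*, the counterpart of *Eef1a1*, at -0.31 (adjusted p = 0.0394), beside 0.06 for *Eef2* and 0.13 for *Eef1a1*, neither called. Leaving out fl/fl 1, iADKO 3 or iADKO 5 left 4 of the 10 lower, leaving out fl/fl 5 gave 8, and with the macrophage score in the fit none was called. By total counts 2 were lower, with the series block 3, at a median log2 fold change of -0.28 beside -0.30 without it. *Tufm* lost its call in 9 of the 13 fits that left out 1 mouse, and *Mtrfr* and *Gfm1* in none of them.

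In the list of eIF2α kinases and phosphatase subunits 2 of 6 were higher and 1 lower. For this list and each one after it, the share over all tested genes was 14.1% higher and 16.3% lower. *Ppp1r15a*, the gene of the stress-induced phosphatase subunit GADD34, rose by 0.56 on the log2 scale (SE 0.103, adjusted p = 0.00175), from 17.4 ± 2.88 CPM (SD, n = 7) to 25.6 ± 2.57 CPM (SD, n = 6). *Eif2ak3*, for the endoplasmic reticulum stress kinase PERK, was at 0.11 (adjusted p = 0.0484) and *Eif2ak1*, for the heme-regulated kinase, at -0.17 (adjusted p = 0.00387). The *Eif2ak3* call was lost in 9 of 13 fits without 1 mouse (fl/fl 1, 3, 4 or 6 or iADKO 1 to 5), and also with DESeq2, limma, DESeq2's size factors and both blocks. *Ppp1r15a* and *Eif2ak1* kept their calls in all 13, but *Ppp1r15a* lost its call with the macrophage score (0.48, adjusted p = 0.0932) and *Eif2ak1* with that score and the series block, and by total counts *Eif2ak1* was at 0.034. Of 14 initiation accessory genes 2 were lower, *Paip2b* (-0.38, adjusted p = 0.0015) and *Paip2* (-0.24, adjusted p = 0.00633), both for inhibitors of the poly(A)-binding protein, and *Bzw2* was the highest at 0.17 without a call. Both calls held in all 13 fits without 1 mouse and were lost with the macrophage score (edgeR adjusted p = 0.151 and 0.352). By total counts *Paip2* was at -0.035 without a call, and 7 of the 14 genes were higher and 1 lower. Of 6 termination and rescue genes *Hbs1l* was lower (-0.16, adjusted p = 0.0388) and *Gspt2* the highest at 0.14 without a call. The *Hbs1l* call was lost in 8 of 13 fits without 1 mouse (fl/fl 1, 2, 4 or 6 or iADKO 1 to 4), with no filter, with both blocks and with the macrophage score, and by total counts it was at 0.046 while 4 of the 6 genes were higher.

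Enzymes that make the hypusine of eIF5A and the diphthamide of eEF2 had 2 of 9 genes higher and 1 lower (14.1% and 16.3% of all tested genes). These were *Dph2* (0.32, adjusted p = 0.0434), *Dph7* (0.25, adjusted p = 0.0318) and *Dnajc24* (-0.28, adjusted p = 0.0282), all of the diphthamide pathway, and neither hypusine gene was called. Among 22 cytosolic aminoacyl-tRNA synthetase and scaffold genes 1 was higher, *Rars1* (0.18, adjusted p = 0.0198), and 3 were lower, among them *Eprs1* (-0.23, adjusted p = 0.013) and *Mars1* (-0.21, adjusted p = 0.0387). Leaving out 1 mouse left 0 to 2 of the hypusine and diphthamide genes higher and 1 to 5 of the synthetase genes lower, the latter at 1 in most cases. *Eprs1* and *Rars1* kept their calls in all 13 of these fits, *Mars1* lost its call in 10, *Dph2* in 8, and *Dph7* and *Dnajc24* in 5 each. With the series block or the macrophage score none of these 6 was called. In these lists, the called genes between the highest and lowest were named after their values were seen.

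Promoter letters were compared as a description of what the called genes share. The window from 250 bases before to 50 after the start of the canonical transcript (GRCm39, GENCODE vM39) was searched on both strands for 5 short motifs in 14133 tested protein-coding genes. The E-box CACGTG, the letters that MYC and USF proteins recognise, was in 11 of the 62 windows (17.7%) and in 9.59% of all. The ETS motif CCGGAAGT was in 6 (9.68%, against 6.11%), the CRE TGACGTCA in 1 (1.61%, against 2.99%), the CCAAT box CCAAT in 19 (30.6%, against 39.1%) and the YY1 motif GCCATNTTG in 3 (4.84%, against 2.95%). Of the 11 called genes 4 held any of them. *Eif4g1* had the E-box at -78 and -9 from the start, *Eef1g* and *Eif4e3* had a CCAAT box at -96 and -167, and *Eef1b2* had the YY1 motif at -161 and the ETS motif at 7 after the start. So no motif searched was shared by all genes of a direction. The start used for *Eif4g1* is that of its canonical transcript, which lies inside the annotated gene. The stretches that hold these matches are shown 5′ to 3′ along the gene, with the match in capitals, where ATTGG is CCAAT and CAATATGGC the YY1 motif read on the other strand.
Eif4g1, chr16:20491401-20491500, plus strand: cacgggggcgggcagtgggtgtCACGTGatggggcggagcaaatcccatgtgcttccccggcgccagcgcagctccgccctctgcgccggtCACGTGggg
Eef1g, chr19:8944275-8944344, plus strand: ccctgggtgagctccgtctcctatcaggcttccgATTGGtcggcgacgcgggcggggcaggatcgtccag
Eif4e3, chr6:99643915-99643984, minus strand: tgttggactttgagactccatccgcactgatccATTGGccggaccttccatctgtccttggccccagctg
Eef1b2, chr1:63215794-63215863, plus strand: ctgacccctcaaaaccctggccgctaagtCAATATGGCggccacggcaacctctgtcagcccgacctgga

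Exons of 29 of the 62 genes overlap those of another gene on the opposite strand. Among the called genes these are *Eif4a2* with *Rfc4*, *Eif2d* with *Rassf5*, *Eif3m* with *Ccdc73* and *Eef1b2* with *Ndufs1*. How strand was used in counting is not given in the sources used here, so reads of such partners may be mixed. On the same strand 3 overlap another protein-coding gene, among them *Eif4e3* with *Gm20696*. How reads were divided between similar copies such as *Eif3j1* and *Eif3j2* is uncertain.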

How the data were processed

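Bulk RNA-Seq of whole pmWAT was read for 7 fl/fl and 6 iADKO mice, grouped by the sample labels. The authors deposited raw counts per Ensembl gene, without normalization, and log2 values made from them with DESeq2's regularized log (rlog). Per the submitters' processing notes and the paper's methods, reads from strand-specific libraries were checked with FastQC 0.12.1, aligned with STAR 2.7.11a to mm39 and tested with DESeq2. The counting tool and gene annotation are not given in the sources used here. Symbols and coordinates are from GENCODE vM39 (GRCm39), and promoter sequences from the GRCm39 genome. All columns of both tables were mapped to samples.

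In R 4.3.3, genes were filtered with filterByExpr and scaled by TMM, and labels were compared by the robust quasi-likelihood test of edgeR 4.0.16 with Benjamini-Hochberg adjustment over all 16753 genes and a threshold of 0.05. The standard error is the log2 fold change divided by the root of the F statistic. Single ratios were compared by exact permutation. Each library is from a different mouse, so p-values measure the spread between mice. Between mice of a label, chi-square over its degrees of freedom was 8.16 to 88.8, and no mice were merged. Scripts were tested on simulated counts with 200 changed genes.

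The translation factor genes, the pathway lists and the tests were chosen with earlier results of these data known. Named are all called translation factor genes, with values by mouse for the 5 highest and 5 lowest and for a core gene of each role, and the highest and lowest gene of each pathway list. Alternatives were DESeq2's size factors, total counts alone, the Wald test of DESeq2 1.42.0, a minimum of 10 counts in every library, no filter at all, a block for the replicate number or for the animal-number series, the macrophage marker score as a covariate, limma 3.58.1 on the rlog values, and each mouse left out in turn. Leaving out fl/fl 5 and iADKO 6 together was added after the data were seen. Protein sequences were not used here. The result for 1 gene of the pathway lists is not reported here.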

Additional observations from a re-analysis of the deposited data

Results flagged for a closer look

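In 4 of 40 sets of values (the named genes, each within 1 label) 1 mouse stood apart from the others by Dixon's 95% limit, where chance gives about 1 in 20. *Eif4ebp2* was at 312 CPM in iADKO 6, while the other iADKO mice were at 261 to 276 CPM. *Eif4enif1* was at 49.5 CPM in iADKO 6, below the 53.6 to 55.5 CPM of the other iADKO mice. For both genes iADKO 6 lay within the fl/fl range, and this mouse also had the lowest macrophage marker sum of its label. *Eif4a2* was at 379 CPM in fl/fl 3, below the 429 to 456 CPM of the other fl/fl mice. *Eif4e* was at 43.2 CPM in fl/fl 5, the fl/fl mouse with the highest macrophage marker sum, and at 52.8 to 58.5 CPM in the others. The part of cell makeup in these values was not tested.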

How the results depend on the processing

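*Eif4e3* and *Eif4a2* kept their direction and call under every alternative run. Of the translation factor genes (6 higher, 5 lower), total counts alone called 40 and 3, no filter on low counts 3 higher, the animal-number series block 3 and 3, and the macrophage score 2 and 1, with 8 higher and 3 lower at an unadjusted p below 0.05 in that fit. Without fl/fl 5 and iADKO 6, 11 were lower. Leaving out 1 mouse gave 4 to 10 higher and 5 to 7 lower. For the pathway genes (5 higher, 21 lower), higher calls were 3 with DESeq2's size factors, 39 by total counts, 1 with no filter, 3 with the replicate block, 1 with the series block, 3 with limma and 0 with the macrophage score, where 6 had an unadjusted p below 0.05. Lower calls were 7 by total counts, 9 with the series block, 1 with the macrophage score and 35 without fl/fl 5 and iADKO 6, and leaving out 1 mouse gave 2 to 7 higher and 14 to 28 lower. Over all genes (2367 higher, 2737 lower), total counts gave 7397 and 1276, the series block 784 and 1202 and the macrophage score 204 and 283, and leaving out 1 mouse gave 1769 to 3319 and 2216 to 3285. By total counts 20 of the 26 translation factor genes with a negative log2 fold change turned positive, 12 of them called under neither scaling. The other 8, of which *Eif2d* was called lower under TMM and 7 were called higher by total counts, were at 0.030 for *Eif2d*, 0.17 for *Eif2s2*, 0.18 for *Eif3b*, 0.16 for *Eif3c*, 0.19 for *Eif3d*, 0.14 for *Eif3j1*, 0.20 for *Eif1ax* and 0.19 for *Eif5*, a scaling that moves every gene up. The causes of the other differences were not tested. Same-numbered mice of the labels did not deviate together in every pair (mean correlation 0.11, lowest -0.03, against -0.02 for other pairs), and each iADKO mouse correlated best with its own number in 2 of 6 cases and each fl/fl mouse in 3 of 6. With the replicate number as a block and fl/fl 7 left out, 5 translation factor genes were higher and 4 lower, and 4 of the 10 mitochondrial translation factor genes were lower. At this depth *Eif3j2*, *Eif4ebp3* and *Eef1akmt3*, at about 1 CPM or less, allow no precise estimate.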
